A study of Mus musculus with 6 samples.

Results

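The probes of miRNAs known from white blood cells, mmu-miR-150, mmu-miR-142-3p, mmu-miR-142-5p, mmu-miR-155 and mmu-miR-223, were read from microarrays of whole dorsal mouse skin. They were taken by probe name, 5 of the 707 mouse miRNA probes on each array, and each had 5 spots. The skin came from inbred C3H/HeJ mice, some of which lose hair to a spontaneous autoimmune attack on the follicles, alopecia areata (AA). In all, 3 arrays held skin with hair loss from mice with spontaneous AA and 3 held normal haired skin from unaffected control mice of the same strain. No age, sex, treatment or genetic change is given in the labels used here. The comparison of the groups asks whether these leukocyte miRNAs differ between diseased and unaffected skin. The submitters' design note tells of several samples per mouse and no label ties an array to a mouse, so the 3 arrays of a group may come from fewer mice. The spread between arrays may then be partly technical, and the p-values measure that spread alone.

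MicroRNAs are short RNAs that bind messenger RNAs, chiefly through the seed near their 5′ end, and lower their output. miR-142 is expressed across blood cell lineages, and both arms of its hairpin are loaded as mature miRNAs. miR-150 is abundant in resting mature lymphocytes and targets the transcription factor Myb, miR-155 is made from the Mir155hg transcript and is induced when lymphocytes and macrophages are activated, and miR-223 is abundant in neutrophils and other myeloid cells. In AA, T cells gather around the growing hair follicle, so leukocytes are cells that such skin can hold. Whole skin is a mixture, so a change in the number of leukocytes and a change in miRNA per leukocyte cannot be told apart. The arrays carry miRNA probes alone, and the presence of leukocytes was not checked against protein-coding markers.

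The target sequences of the 4 members with a matching RefSeq entry (GRCm38.p6) are shown because the detection results below turn on these probes. Capitals mark the seed, bases 2 to 8.
miR-142-3p: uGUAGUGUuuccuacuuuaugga
miR-142-5p: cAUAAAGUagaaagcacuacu
miR-155: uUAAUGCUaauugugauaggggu
miR-223: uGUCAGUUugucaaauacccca
The seeds of these members all differ, and 0 other probes on the array shared the seed of any of the 5 members. RefSeq now calls the matched mature forms miR-142a-3p, miR-142a-5p, miR-155-5p and miR-223-3p. miR-150 is named only.

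The miR-142 arms lie on 1 hairpin on the plus strand at chr11:87756864-87756927, where the miRNA gene Mir142b is annotated at the same place. The hairpin is shown because both of its arms, in capitals, are members, each with its own probe.
Mir142 hairpin: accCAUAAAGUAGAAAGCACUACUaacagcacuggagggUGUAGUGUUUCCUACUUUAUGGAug
Mature miR-155 lies at chr16:84714143-84714165 on the plus strand, within the long non-coding RNA gene Mir155hg. Mature miR-223 lies at chrX:96242884-96242905 on the plus strand, within the long non-coding RNA gene F630028O10Rik. The closest other target sequence on the array was 8 edits away for miR-150, miR-142-3p and miR-155, 7 for miR-142-5p and 9 for miR-223. The GC content of the targets was 54.5% for miR-150 and 33.3% to 40.9% for the other members.

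Each array also carried 145 empty control spots, and a probe was called detected where the mean of its raw spots lay above the 95th percentile of that array's own empty spots. By this rule, 97 to 202 of the 707 miRNA probes were detected per array (13.7% to 28.6%). The median empty spot read 209, 490 and 530 in AA replicates 1 to 3 and 274, 168 and 189 in unaffected replicates 1 to 3. For the 88 probes above that limit on every array, the median signal was 1.46 to 3.33 times the median empty spot on the AA arrays and 4.20 to 16.9 times on the unaffected arrays. The AA arrays therefore all had less contrast over their empty spots than the unaffected arrays, and the part of this in the results below was not tested.

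The leukocyte probes fell into 3 kinds by detection. miR-150 was detected on 6 of 6 arrays, miR-223 on 3 of 6, and miR-142-3p, miR-142-5p and miR-155 on 0 of 6. Most probes of the array were likewise not detected anywhere. Of all 707 miRNA probes, 458 were detected on no array and 88 on all 6. Of the 30 readings (5 members on 6 arrays), 9 were above the detection limit, 4 of 15 in AA and 5 of 15 in unaffected skin. Only the 2 members detected on at least 3 arrays, miR-150 and miR-223, entered the test with 155 other miRNAs. In that limma test 0 of 157 miRNAs (0%) differed at an adjusted p under 0.05, and 0 of these 2 members did. At an unadjusted p under 0.05, 4 miRNAs (2.55%) were higher in AA and 8 (5.1%) lower, and neither member was among them. The AA arrays were all higher than the unaffected ones for 7 miRNAs (4.46%) and all lower for 11 (7.01%), again with neither member among them.

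**Figure D1:**
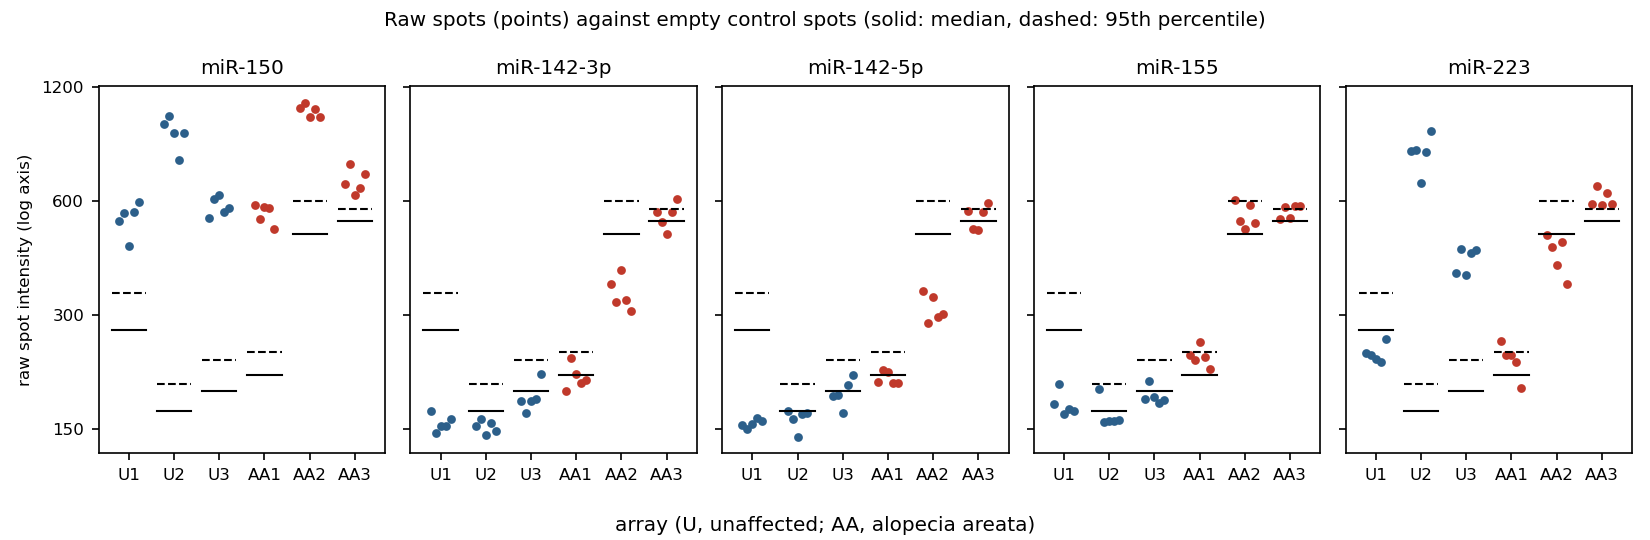
Raw intensity of the 5 spots of each member (log axis) on the 3 unaffected arrays (U1 to U3, blue) and the 3 AA arrays (AA1 to AA3, red), with the median (solid line) and 95th percentile (dashed line) of that array's empty control spots. All 30 miR-150 spots lie above the dashed lines, the miR-142 spots lie below them apart from 1 spot of each arm on AA3, and the miR-223 spots lie clear of the empty spots on U2 and U3.

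miR-150 was the lymphocyte miRNA with a clear signal. Its mean raw intensity was 556, 1037 and 678 in AA replicates 1 to 3 and 541, 907 and 582 in unaffected replicates 1 to 3. All 30 of its spots were brighter than the brightest empty spot of their array. The 5 spots of an array differed little, with a coefficient of variation of 3.82% to 9.67%. Against the median empty spot, the raw signal was 2.66, 2.11 and 1.28 times in AA and 1.97, 5.42 and 3.08 times in unaffected skin. The groups overlapped on that scale, with the highest ratio in unaffected replicate 2 and the lowest in AA replicate 3 (mean log2 ratio 0.95 ± 0.54 for AA, 1.68 ± 0.73 for unaffected skin, SD over n = 3 arrays, exact permutation test, two-sided, p = 0.3, where 0.1 is the smallest p that 3 arrays against 3 allow).

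After background correction and quantile normalization, which sets each array to the same distribution of values, the order of the groups turned. Normalized log2 intensities of miR-150 were 9.85, 9.11 and 9.40 in AA replicates 1 to 3 and 9.13, 8.65 and 8.34 in unaffected replicates 1 to 3. AA replicates 1 and 3 lay above every unaffected array, and AA replicate 2 lay just below unaffected replicate 1. The AA mean was 1.68-fold higher (log2 difference 0.74, SE 0.40, 95% interval -0.14 to 1.63, limma adjusted p = 0.588), a difference that did not pass, and the mean was lower in AA by 0.46 under scaling to the 75th percentile of all miRNA probes and by 0.36 without normalization between arrays. Under both of those settings the tested miRNAs as a whole were lower in AA as well, with medians of -0.95 and -0.84. Relative to the median of all tested miRNAs, miR-150 was 0.78 higher in AA in the main setting and 0.48 to 1.27 higher over the 21 alternatives. Scaling of whole arrays moves every miRNA alike and cannot change this value, so the settings that changed only the scaling all gave 0.48. They are no check of its sign, and how many other miRNAs kept their side of the median was not counted. By rank of its raw intensity on its own array, which needs no scaling, miR-150 stood at percentiles 92.6, 89.2 and 90.5 of the 707 probes in AA and at percentiles 89.3, 87.3 and 85.5 in unaffected skin. In the authors' deposited table of processed intensities, the values of miR-150 were 736, 500.17 and 504 for AA replicates 1 to 3, against 440, 344 and 251 for the unaffected ones. There the AA arrays all lay above the unaffected arrays, as they did for 9 of the 157 tested miRNAs (5.73%), and the fit of that table did not pass for miR-150 either (log2 difference 0.76, SE 0.44, limma adjusted p = 0.596).

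The other arm of the miR-150 hairpin, miR-150*, was detected on 1 array, unaffected replicate 2, where it read 207, 1.23 times the median empty spot. On the other arrays it read 0.607 to 1.03 times the median empty spot and was not well above background. The arms on the other side of the miR-155 and miR-223 hairpins are not among the probes used here.

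The myeloid miRNA miR-223 overlapped between the groups relative to the empty spots and was detected on 1 AA array and 2 unaffected arrays. Its mean raw intensity was 229, 435 and 609 in AA replicates 1 to 3 and 238, 805 and 420 in unaffected replicates 1 to 3. These were 1.10, 0.887 and 1.15 times the median empty spot in AA and 0.868, 4.81 and 2.22 times in unaffected skin. Unaffected replicates 2 and 3 had 5 of 5 spots above the detection limit on each, while unaffected replicate 1 had 0 of 5. Replicates 2 and 3 were also the arrays of highest contrast, with the probes detected throughout at a median of 16.9 and 11.4 times the median empty spot. By rank among the probes of its own array, miR-223 stood at percentiles 73.1, 69.7 and 85.9 in AA replicates 1 to 3. In unaffected replicates 1 to 3 it stood at 81.1, 87.2 and 83.2. Among the AA arrays, replicate 3 had 5 of 5 spots above the limit, replicate 1 had 1 and replicate 2 had 0. The groups overlapped (mean log2 ratio to the median empty spot 0.053 ± 0.20 for AA, 1.07 ± 1.24 for unaffected skin, SD over n = 3 arrays, exact permutation test, two-sided, p = 0.4).

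Normalized log2 intensities of miR-223 were 7.23, 7.15 and 8.42 in AA replicates 1 to 3 and 7.75, 8.60 and 8.03 in unaffected replicates 1 to 3. AA replicate 3 lay between the unaffected arrays and the other AA arrays lay below all of them. The mean was lower in AA by a log2 difference of -0.52 (SE 0.46, 95% interval -1.54 to 0.49, limma adjusted p = 0.740), which did not pass, and it was higher in AA by 0.35 under scaling to the 75th percentile of the probes seen on every array. The median of all tested miRNAs was 0.53 under that scaling. Relative to the median of the same setting, miR-223 was lower in AA in each of the 20 alternatives that tested it (-1.01 to -0.16). The settings that changed only the scaling of whole arrays all gave -0.18 and could not turn this sign. Its difference was -0.93 without AA replicate 3 and -0.29 without unaffected replicate 2, and -0.21 with the trend on GC content removed. In the authors' deposited table the values of miR-223 were 70.7, 76.4 and 195 for AA, against 129, 377 and 186 for unaffected skin, again with AA replicate 3 among the unaffected arrays.

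**Figure D2:**
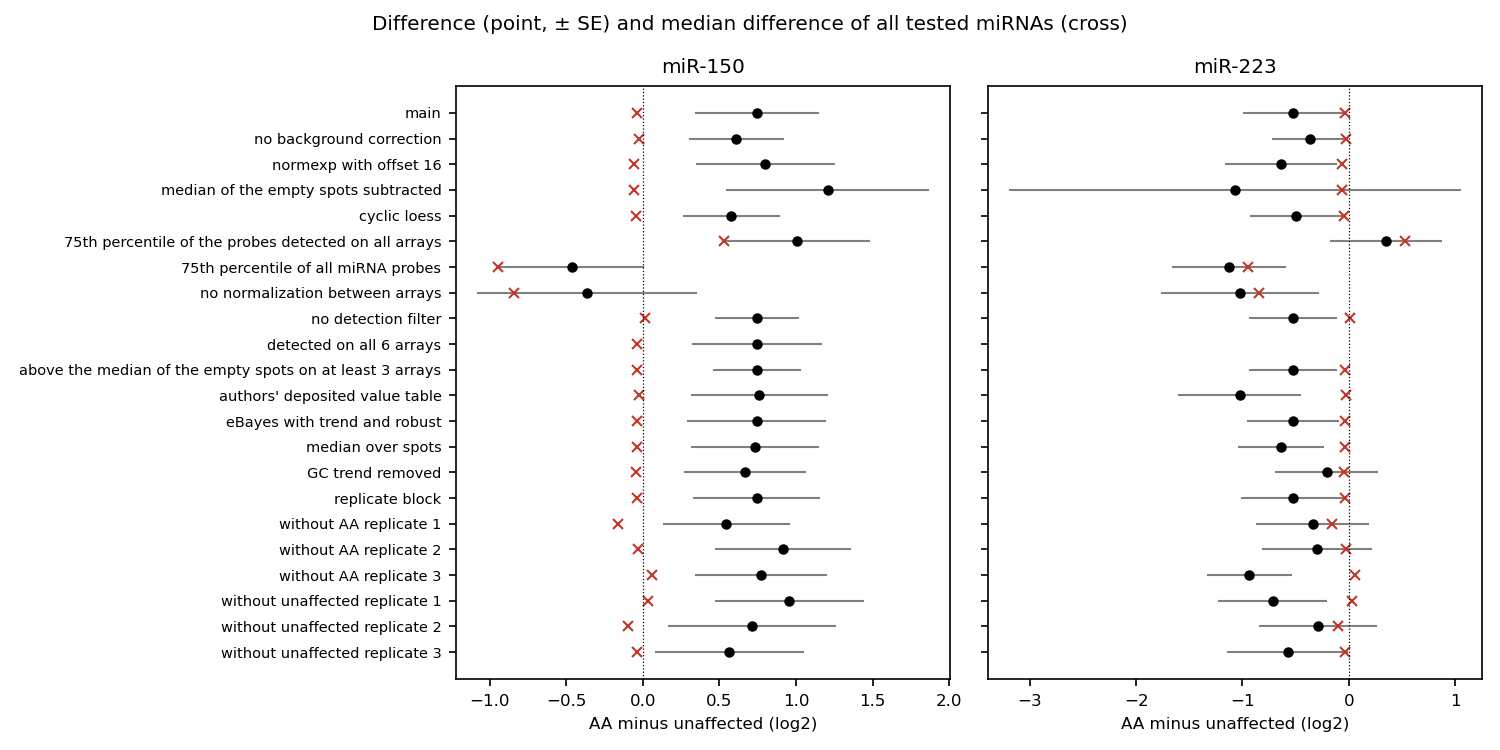
AA minus unaffected log2 difference of miR-150 (left) and miR-223 (right) in the main limma fit and in each alternative (points, with the standard error as bars), beside the median difference of all tested miRNAs in the same fit (crosses). The miR-150 point lies to the right of the cross in every setting, with values of -0.46 and -0.36 in the 2 settings that move the cross below -0.8. The miR-223 point lies to the left of the cross in every setting that tested it. Scaling of whole arrays moves point and cross together, so it cannot change their order.

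The arms of miR-142, the miRNA shared by blood cell lineages, were not detected above the empty spots on any array. miR-142-3p had a mean raw intensity of 206, 343 and 549 in AA replicates 1 to 3 and 156, 152 and 182 in unaffected replicates 1 to 3. These were 0.986, 0.699 and 1.04 times the median empty spot in AA and 0.569, 0.909 and 0.962 times in unaffected skin. Both arms were dimmer than most empty spots on every array but AA replicate 3, where miR-142-3p was brighter than 71.0% of them and miR-142-5p than 68.3%. They stood lowest on unaffected replicate 1 and AA replicate 2, where miR-142-3p was brighter than 0.690% and 4.14% of the empty spots. The higher raw readings on AA replicates 2 and 3 went with the higher empty spots of those arrays. For miR-142-5p the ratios were 0.981, 0.638 and 1.03 in AA and 0.568, 0.956 and 0.993 in unaffected skin. The arms thus read alike array by array, at the level of the empty spots or below, where shared background cannot be told from shared signal. For each arm 1 of 30 spots exceeded the detection limit, in both cases on AA replicate 3. Neither arm was well above background in either group, and the groups overlapped for both (exact permutation test, two-sided, p = 0.5 for miR-142-3p and p = 0.6 for miR-142-5p). In the authors' deposited table miR-142-3p stood at 18.5, 20.1 and 41.9 in AA and 22.8, 22.6 and 31.8 in unaffected skin, and the median of all probes in that table was 34.2 to 44.3 per array.

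miR-155, induced in activated lymphocytes and macrophages, also stayed below the detection limit on every array, with AA readings all above the unaffected ones relative to the empty spots. Its mean raw intensity was 233, 550 and 564 in AA replicates 1 to 3 and 175, 164 and 184 in unaffected replicates 1 to 3. Against the median empty spot these were 1.12, 1.12 and 1.06 times in AA and 0.638, 0.981 and 0.970 times in unaffected skin. Every AA array lay just above its median empty spot and every unaffected array below it, which is the lower limit of the exact permutation test for 3 arrays against 3 (two-sided, p = 0.1) and cannot pass 0.05. On this scale 2 of the 707 miRNA probes (0.283%) had all AA arrays above all unaffected arrays, miR-155 and miR-710, the second of which is named because it appeared in this count, and 51 probes (7.21%) had all AA arrays below. miR-710 was detected on 0 arrays. In unaffected replicate 1 the median empty spot (274) was brighter than the median miRNA spot (168). Without that array, the ratios that remained were 0.970 and 0.981 in unaffected skin against 1.06 to 1.12 in AA. The median empty spot was also the brighter on AA replicate 2 (490 against 399) and, slightly, on unaffected replicate 2 (168 against 166). Divided by the median of all miRNA spots instead, miR-155 overlapped between the groups (log2 difference 0.19, exact permutation test, two-sided, p = 0.2).

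The rank of miR-155 among the 707 probes showed the same order as its ratio to the median empty spot. It stood at percentiles 76.6, 81.8 and 75.3 in AA replicates 1 to 3 and at percentiles 64.4, 52.3 and 38.8 in unaffected replicates 1 to 3. Of all 707 probes, 50 (7.07%) had AA ranks that all lay above the unaffected ranks, and among the 458 probes detected on no array 37 (8.08%) did, so a rank order of this kind was common among undetected probes. Of the 5 miR-155 spots of an array, 1 exceeded the detection limit on AA replicate 1, 1 on AA replicate 2 and 3 on AA replicate 3. On each unaffected array it was 0 of 5. Spots of an array are repeat readings of the same sample and not replicates of the group. The share of such spots over all probes was not counted. The probe was brighter than 89.0%, 74.5% and 81.4% of the empty spots in AA and than 0.690%, 44.8% and 37.9% in unaffected skin. In the authors' deposited table its values were 71.2, 115 and 66.8 for AA, against 47.0, 33.6 and 26.7 for unaffected skin, with all AA arrays above, as for 32 of the 707 miRNA probes (4.53%). Since both groups were below the detection limit, these readings are relative to background and no fold change is given. When all 707 probes were tested without the detection filter, the adjusted p of miR-155 was 0.565 in limma, and 0 probes passed (17 higher and 32 lower in AA at an unadjusted p under 0.05). Among those 17 were miR-155 and miR-150 (limma unadjusted p = 0.011 and 0.034), and neither passed after adjustment.

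**Figure D3:**
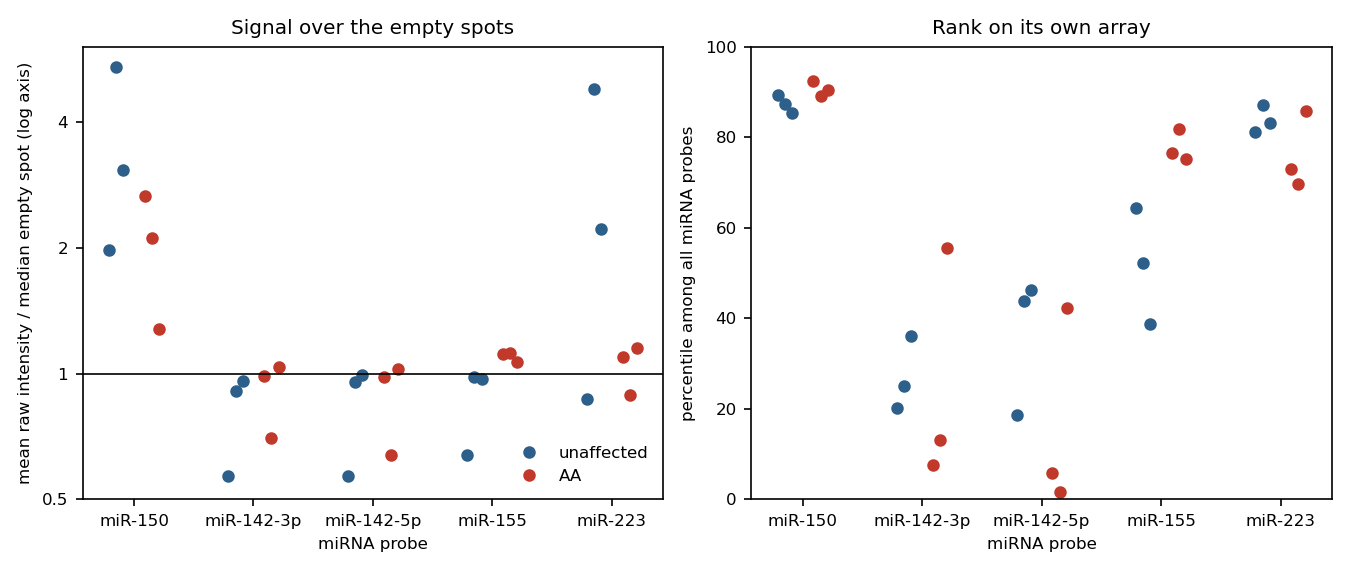
Left, mean raw intensity of each member divided by the median empty spot of its array (log axis, line at 1); right, percentile of its raw intensity among the 707 miRNA probes of its array. Points are single arrays, 3 unaffected (blue) and 3 AA (red). The miR-155 points are separated by group on both scales, just above and below 1 on the left, while the miR-150 points stand at 1.28 to 5.42 on the left and overlap between groups on both scales.

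Other miRNAs known to act in leukocytes were read from a list of 16, all on the array, 10 with higher and 6 with lower means in AA in the fit of all 707 probes. Of these, 7 reached the detection minimum, and 0 of the 7 passed in either direction. All 7 had higher means in AA, by a median of 0.17, but 0 of the 7 did under scaling to the 75th percentile of all miRNA probes, 2 without normalization between arrays, and 4 without AA replicate 1, AA replicate 2 or unaffected replicate 2. The median of all 157 tested miRNAs was -0.039 in the main setting, and 73 of the 157 had higher means in AA. It was -0.95 with that scaling and -0.84 without normalization between arrays. In both, 6 of the 7 lay above it, a count that scaling of whole arrays cannot change. Without AA replicate 2, 4 of the 7 lay above the median of that setting. miR-146a, which dampens inflammatory signalling, and miR-21, induced in activated T cells, had the highest differences of the list (log2 difference 0.94, SE 0.39, and 1.01, SE 0.68, limma adjusted p = 0.566 and 0.684). miR-146b differed by 0.26 (SE 0.44), and the miR-181 family, which tunes T cell receptor signalling, by 0.021 to 0.17. The mean of the 7 was 8.88, 9.31 and 8.35 in AA replicates 1 to 3 and 8.42, 8.40 and 8.63 in unaffected replicates 1 to 3, so AA replicate 3 lay below all unaffected arrays. Without unaffected replicate 1, at 7.76 against 10.28 and 10.37 in replicates 2 and 3, the miR-21 difference was 0.15. The other 9 members of the list did not reach the detection minimum, and in the fit of all 707 probes 6 of them had lower and 3 higher means in AA, with 0 passing. The lowest was miR-10a, which is expressed in regulatory T cells, at -1.14 (limma adjusted p = 0.308). Its raw signal was 1.05, 1.06 and 1.04 times the median empty spot in AA, detected on 0 of 3 arrays, and 1.18, 2.92 and 3.44 times in unaffected skin, detected on 2 of 3. miR-301a, miR-212 and miR-132 differed by -0.38, -0.23 and -0.11, and miR-342-3p, miR-342-5p, miR-326, miR-147 and miR-511 by -0.0081 to 0.16. Over all 16 the median was 0.053, where that of all 707 probes was 0.012.

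**Figure D4:**
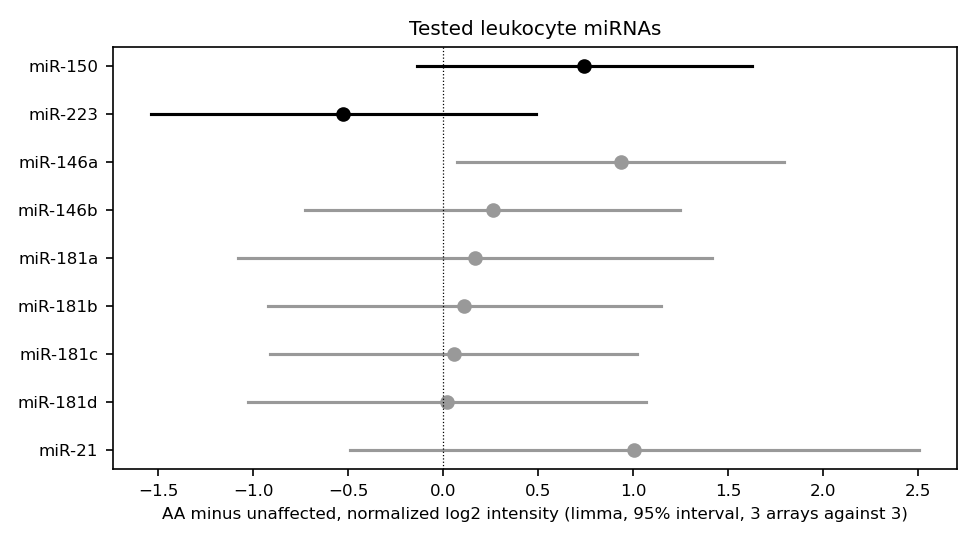
AA minus unaffected difference in normalized log2 intensity with its 95% interval (limma, 3 arrays against 3) for the 2 tested members (black) and the 7 tested miRNAs of the list of other leukocyte miRNAs (grey). The intervals of both members include 0, and miR-223 is the 1 miRNA shown whose mean is lower in AA, an order that turns under scaling to the probes seen on every array, while that of the other 8 turns under scaling to all miRNA probes.

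Among the 156 other tested miRNAs, the profile over the 6 arrays most like that of miR-150 was that of miR-222, a repressor of the cell-cycle inhibitor Cdkn1b. Likeness was the root mean square difference between centred log2 profiles, 0.18 for miR-222, 0.25 for miR-99b and 0.27 for miR-210, where the median over all candidates was 0.69. The profile most like that of miR-223 was that of miR-22 (0.12), followed by miR-467f (0.31) and miR-466i (0.33), with a median over all candidates of 0.78. The log2 values of miR-22 were 9.36, 9.07 and 10.37 for AA replicates 1 to 3, against 9.67, 10.48 and 9.74 for the unaffected ones, and so shared the high values of AA replicate 3 and unaffected replicate 2. These likenesses rest on 6 arrays that share the same normalization and are a description.

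Probes of other cell types moved between the same arrays. The mean of the red-cell miRNAs miR-451 and miR-486 ranged from 8.16 to 12.52 in AA, lowest in replicate 2 and highest in replicate 3, and from 10.58 to 11.50 in unaffected skin, and the third red-cell probe, miR-144, was detected on 0 arrays. The mean of the 4 skeletal muscle miRNAs was 10.52, 10.29 and 11.47 in AA and 10.41, 12.61 and 12.04 in unaffected skin. Unaffected replicates 2 and 3, where miR-223 was clear of the empty spots, had the highest muscle values. They also had the highest contrast over the empty spots (16.9 and 11.4 times). For the 7 keratinocyte miRNAs the mean per array ranged from 9.70 to 10.12 in AA and from 9.91 to 10.59 in unaffected skin. That of the 5 fibroblast and smooth muscle miRNAs ranged from 9.84 to 10.74 and from 10.19 to 10.58. The 1 tested endothelial miRNA, miR-126-3p, ranged from 8.71 to 9.60 in AA and from 9.02 to 11.24 in unaffected skin. The part of blood content and tissue makeup in the miR-150, miR-155 and miR-223 values was not tested.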

How the data were processed

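Whole dorsal skin of C3H/HeJ mice was profiled on 1-colour µParaflo chips by a service provider, 3 arrays of AA and 3 of unaffected skin. Per the labels' protocols, RNA was tailed with poly(A) and joined to a tag for Cy3 staining, although the extraction text also mentions biotin-labelled cRNA. The deposited scanner files give the raw intensity of each of 3968 spots per array, neither background-subtracted nor normalized. For the image software and the genome build, nothing is given in the sources used here. The authors also deposited a table of processed intensity for 755 probes on a linear scale. Its log2 values correlated with the raw values at r = 0.956 to 0.999 per array over 88 probes detected throughout, its column medians were 34.2 to 44.3, and its scaling method is unknown.

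Raw intensities were corrected with normexp (offset 50) in limma 3.58.1 (R 4.3.3), each probe's 5 spots were averaged as log2, and arrays were quantile-normalized over 707 probes. The 157 probes detected on at least 3 arrays were tested (lmFit, eBayes, two-sided, Benjamini-Hochberg, threshold 0.05), and the members' rows were read from that fit. The fit was checked on simulated data. Raw signal over the median empty spot was compared by an exact permutation test. The deposited table was tested as log2(value + 1). The members, lists and alternatives were chosen with earlier results of these data known. The text names the 5 members, the other arms of their hairpins, listed leukocyte miRNAs, cell type markers and the 3 closest profiles of each tested member. The offset compresses differences of dim probes, and the number of arrays limits the precision.

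Replicate numbers are not stated to pair mice, and deviations from the group means correlated at 0.14, -0.10 and -0.12 between arrays of the same number, so the block was an alternative. The files used here name no slide or scan batch.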

Additional observations from a re-analysis of the deposited data

How the results depend on the processing

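Across the 21 alternatives to the limma fit, neither tested member passed the adjusted threshold. The adjusted p ran from 0.231 to 0.943 for miR-150 and from 0.148 to 0.957 for miR-223, over the 20 alternatives that tested the latter. The sign of miR-150 turned to -0.46 with the 75th percentile of all miRNA probes and to -0.36 without normalization between arrays, and that of miR-223 to 0.35 with scaling to the 75th percentile of probes seen on every array. With 1 array left out at a time, miR-150 ran from 0.54 to 0.96 and miR-223 from -0.93 to -0.29. With the replicate number as a block, miR-150 was 0.74 (adjusted p = 0.644), miR-223 was -0.52 (adjusted p = 0.768) and 0 miRNAs passed. The count of miRNAs past the threshold was 0 except without single arrays, where it ran from 0 to 5. Without unaffected replicate 1 it was 5 (miR-1937a, miR-1937b, miR-1, miR-26b and miR-30b), and without unaffected replicate 2 it was 2 (miR-2861 and miR-705), all named after their values were seen. The unadjusted counts of 4 higher and 8 lower became 30 and 2 with scaling over the probes seen on every array, 0 and 62 with that over all miRNA probes, and 0 and 38 without normalization.

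Over the empty spots, the signs of miR-150, miR-155 and miR-223 were kept in all 9 alternatives of each. Over the median empty spot with 1 array left out, the log2 difference of miR-150 ran from -1.08 to -0.35 and that of miR-223 from -1.65 to -0.42. Against the median of all miRNA spots, the background-level readings of miR-142-3p turned to -0.0087 and of miR-142-5p to -0.097. Over the median empty spot with 1 array left out, they ran from -0.065 to 0.35 and from -0.17 to 0.30. The cause was not tested. The contrast of the probes over the empty spots limits what can be read for miR-142 and miR-155.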
